A study of Mus musculus with 8 samples.

Results

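Mature miRNAs of undifferentiated KH2-DGCR8 mouse embryonic stem cells were compared with and without doxycycline (Dox) at day 0 of embryoid body differentiation. All 1099 miRNAs listed in the table were taken, in the 2 day 0 libraries of a series of 8. The other 6 libraries are the matching pairs at days 1, 2 and 4. The KH2 line was engineered so that a transgene can be switched on with Dox. Every group shares the KH2-DGCR8 genotype, in which that transgene encodes DGCR8, so the day 0 control is the same line without Dox and not a line without the transgene. The sources used here do not give the length of the Dox treatment, whether the line is 1 clone or whether each library had its own culture. The study asked what an excess of DGCR8 does to miRNA production.

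DGCR8 is the RNA-binding partner of the nuclease DROSHA, and together they form the Microprocessor. The Microprocessor cuts the hairpin out of the primary miRNA transcript, and DICER then trims the hairpin to a duplex with a 5p and a 3p arm. One arm is usually kept in an Argonaute protein and the other is mostly lost. In mouse embryonic stem cells a large part of all miRNAs comes from the miR-290 cluster. Its members miR-291a-3p, miR-294-3p and miR-295-3p share a seed with members of the miR-302 cluster of the epiblast. A seed, bases 2 to 8 of the mature miRNA, is the stretch through which it recognises most of its targets.

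The sequences of the miRNAs on which the day 0 comparison turns are given here, from the RefSeq tables for mm10. Bases 2 to 8, the seed, are in capitals, and sequences run 5′ to 3′. The first set holds miRNAs at the ends of the range of ratios.
miR-210-3p: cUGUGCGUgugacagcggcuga
miR-210-5p: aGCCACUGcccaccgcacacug
miR-770-3p: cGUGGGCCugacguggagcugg
miR-493-5p: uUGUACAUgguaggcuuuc
miR-1968-5p: uGCAGCUGuuaaggaugguggacu
miR-582-5p: aUACAGUUguucaaccaguuac
miR-582-3p: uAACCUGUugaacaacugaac
miR-196a-5p: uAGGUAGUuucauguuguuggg
miR-196b-5p: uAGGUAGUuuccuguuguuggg
miR-196a-5p and miR-196b-5p differ at 1 of 22 positions, so a read with an error can be assigned to the wrong one of them.
The second set shares the seed AUUGCAC, and all members printed here stood higher with Dox at day 0.
miR-25-3p: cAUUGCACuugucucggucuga
miR-92a-3p: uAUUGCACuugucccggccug
miR-92b-3p: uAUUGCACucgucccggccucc
miR-32-5p: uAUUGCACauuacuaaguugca
miR-363-3p: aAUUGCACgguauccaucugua
The third set gives members of the miR-290 cluster, which held the largest share of both libraries.
miR-293-3p: aGUGCCGCagaguuuguagugu
miR-295-3p: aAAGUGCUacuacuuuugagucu
miR-291a-3p: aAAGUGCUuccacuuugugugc
miR-292a-5p: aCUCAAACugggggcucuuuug
The last set gives whole hairpins with both mature arms in capitals, for 2 miRNAs at the extremes and for 1 whose arms stood on opposite sides. Mir210 lies at chr7:141221384-141221493 on the minus strand of mm10, outside any annotated host gene. Mir770 lies at chr12:109563692-109563785 on the plus strand, in an exon of the long noncoding RNA Meg3. Mir25 lies at chr5:138165321-138165404 on the minus strand, in a stretch that the annotation counts as an exon of Mcm7.
Mir210: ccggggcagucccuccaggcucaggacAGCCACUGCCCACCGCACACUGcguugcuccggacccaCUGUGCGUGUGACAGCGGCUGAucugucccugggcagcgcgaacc
Mir770: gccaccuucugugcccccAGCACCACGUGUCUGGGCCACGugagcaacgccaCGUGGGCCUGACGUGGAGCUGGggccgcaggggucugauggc
Mir25: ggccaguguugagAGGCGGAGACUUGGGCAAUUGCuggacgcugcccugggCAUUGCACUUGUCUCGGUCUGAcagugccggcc

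Values are the deposited scores, read as RPM, in which the miRNA reads of every library are scaled to a shared total. The smallest totals that match the values are 412554 miRNA reads without Dox and 365870 with Dox, so 1 read is taken as worth 2.42 and 2.73 RPM. Some rows have identical values, so a read may be counted in more than 1 of them. With 1 library on each side there is no test of the day 0 difference. Each ratio is given with a 95% exact conditional binomial interval on the implied reads, which covers counting error alone, because copies made by PCR are no separate molecules. Any other difference between the 2 cultures or library preparations cannot be told apart from Dox at day 0. Small RNA libraries do not read the mRNA of the transgene, so its induction was not checked here. miR-1306 lies in an exon of Dgcr8, and its 3p arm read 5 RPM without Dox and 11 RPM with it, its 5p arm 10 and 11, all within a few reads of each other.

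Both day 0 libraries were rich in stem cell miRNAs. The miR-290 cluster made up 46.1% (45.9 to 46.2) of the reads without Dox and 40.5% (40.3 to 40.6) with Dox, both as 95% exact binomial intervals. The miR-302 cluster, which comes on as stem cells move toward the epiblast, made up 0.0419% and 0.0328%. Markers of other cell types were present in both libraries too and are given further on. A count of 0 allows up to 7.27 RPM without Dox and 8.20 with Dox, the worth of 3 reads.

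The profile was close in the 2 libraries where depth allowed it to be read well. A miRNA was above 0 in both libraries in 561 cases, only without Dox in 69, only with Dox in 83 and in neither in 386. None of the miRNAs found in 1 library only exceeded 36 RPM. The 455 miRNAs whose mean over the 2 libraries reached 10 RPM held 99.9% of the values of each, and their ratios are described below. The median log2 ratio, log2((Dox + 1)/(no Dox + 1)), was 0.025 over these, with an SD of 0.82 between miRNAs.

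A ratio of at least 2-fold was found for 68 of the 455, which is 14.9%. Of these 33 were higher with Dox (7.25%) and 35 lower (7.69%), and 36 (7.91%) also had a counting interval that left out 1. The interval left out 1 for 135 of 297 miRNAs whose mean reached 50 RPM (45.5%), so at that level counting error was often smaller than the difference between the libraries. Scaled to the values outside the miR-290 cluster instead, all log2 ratios moved by -0.14, and the split became 25 higher and 42 lower. The share of the 2-fold ratios that were higher was then 37.3% in place of 48.5%.

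Large ratios were found among miRNAs of low abundance. Between 10 and 50 RPM, 23 of 158 miRNAs were at least 2-fold higher and 27 at least 2-fold lower, with an SD of 1.15 and a median counting error of 0.74, both in log2. At a mean of at least 100 RPM, 5 of 237 were higher and 3 lower by that much. None of the 89 whose mean reached 1000 RPM differed by 2-fold, where log2 ratios ran from -0.65 for miR-5099 to 0.87 for miR-32-5p. Their SD was 0.36 against a median counting error of 0.056. The same 89 had an SD of 0.32 at day 1, 0.32 at day 2 and 0.47 at day 4, so the spread between the Dox and no Dox libraries at day 0 was within the range of the later pairs.

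**Figure D1:**
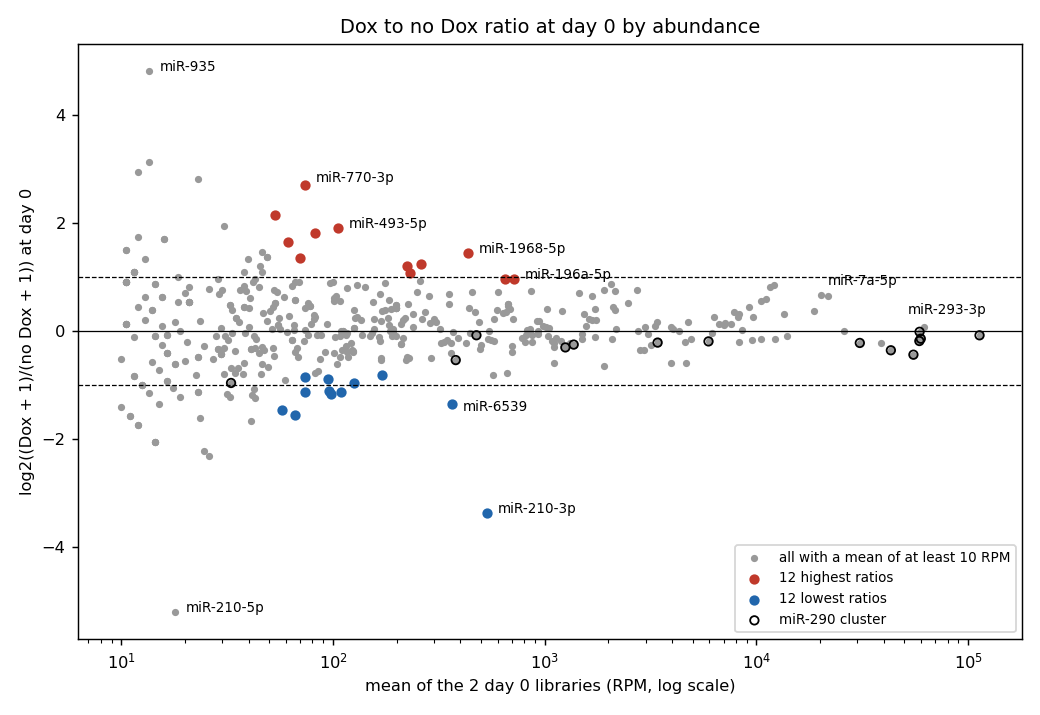
Log2 ratio of Dox to no Dox at day 0 (y axis) against the mean of the 2 day 0 libraries in RPM (x axis, log scale), 1 point for each of 455 miRNAs; dashed lines mark 2-fold. Ratios spread widely at the left and narrow to within 2-fold from 1000 RPM on, with miR-210-3p (970 RPM without Dox, 93 with Dox) far below the other points of its abundance and the circled miR-290 cluster just under the zero line.

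miR-210-3p stood apart from the rest of the table. This miRNA is a textbook target of the hypoxia-inducible factors and is raised in many cells when oxygen is low. It was at 970 RPM without Dox and 93 RPM with Dox at day 0, which is 10.4-fold lower (7.34 to 15.3). The other arm of the hairpin printed above, miR-210-5p, was at 36 RPM without Dox, from 15 implied reads, and at 0 with Dox. That is 4.39-fold lower against a floor of 3 reads in the Dox library, and its counting interval allows a fall of 3.18-fold. Both arms were thus lower, where 7.69% of all 455 miRNAs were lower by 2-fold. They are the only members of the hypoxia list and come from 1 hairpin, so the list holds no more than this miRNA.

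The later days, whose libraries the day 0 ratio did not use, gave miR-210-3p values of 271, 332 and 988 RPM without Dox and 106, 136 and 65 RPM with Dox at days 1, 2 and 4. All 4 Dox libraries lay below all 4 no Dox libraries, and the Dox libraries lay closer together. In limma, fitted to 839 miRNAs with a separate Dox term for day 0 and for the later days, it fell by 2.18 (SE 0.33) on the log2 scale over days 1, 2 and 4, with a Benjamini-Hochberg adjusted p of 8.48e-07. That p rests on a spread pooled over miRNAs. Over 10 alternative settings it ran from 6.57e-07 to 0.768 and passed in 6. Without the day 1 pair it was 0.768 at a fall of 2.59, and without the day 4 pair 0.688 at a fall of 1.31. The day 0 difference exceeded the later one by a log2 of -1.19 (SE 0.67, limma adjusted p = 1).

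Above 50 RPM, the 12 highest ratios with an interval that left out 1 began with miR-770-3p, from the Meg3 transcript. It was at 19 RPM without Dox and 128 RPM with Dox, 6.74-fold higher (3.10 to 16.2), from 8 and 47 implied reads. Its level without Dox was the lowest of the 8 libraries, since the later days read 47, 97 and 163 RPM without Dox and 131, 228 and 183 RPM with Dox. The 4 Dox values lay between 128 and 228 RPM, and the ratio narrowed as the no Dox value grew from day to day. The other arm, miR-770-5p, was at 22 and 36 RPM at day 0.

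miR-3066-5p, from an intron of Nol10, followed at 19 and 87 RPM, 4.58-fold higher (2.04 to 11.3). miR-671-5p, from an exon of Chpf2, was at 29 and 93 RPM, 3.21-fold higher (1.61 to 6.78). For both, the interval spans more than a 4-fold range because the lower library holds few reads. miR-674-5p was better measured, at 155 RPM without Dox and 364 RPM with Dox (2.35-fold, 1.73 to 3.21), and its other arm, miR-674-3p, was higher with Dox in all 4 pairs, at 221 and 347 RPM on day 0.

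miR-1968-5p had the narrowest interval of any ratio above 2 in this set. Its hairpin lies at chr8:13189031-13189098 in an intron of Grtp1. It was at 233 RPM without Dox and 631 RPM with Dox, 2.71-fold higher (2.13 to 3.48), from 96 and 231 implied reads. At days 1, 2 and 4 it was at 198, 119 and 105 RPM without Dox and 348, 234 and 212 RPM with Dox. It was therefore higher with Dox in all 4 pairs.

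Both arms of miR-582, from an intron of the phosphodiesterase gene Pde4d at chr13:109324744-109324824, were higher with Dox. miR-582-5p was at 39 and 101 RPM, 2.59-fold higher (1.42 to 5.02). miR-582-3p, the more abundant arm, was at 177 RPM without Dox and 336 RPM with Dox, a log2 ratio of 0.92. Over the later days miR-582-3p rose by a log2 of 1.34 (SE 0.31, limma adjusted p = 0.00544, 0.00499 to 0.768 over 10 alternatives). It did not pass without the day 1 pair (adjusted p = 0.768), without the day 2 pair (0.0760) or without the day 4 pair (0.688), and its direction was the same in each.

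The miRNAs of the Hox clusters were split at day 0. miR-196a-5p and miR-196b-5p, which repress Hox mRNAs and lie in the Hoxb, Hoxc and Hoxa clusters, closed the set of 12. miR-196a-5p was at 487 RPM without Dox and 948 RPM with Dox (1.95-fold, 1.63 to 2.33). miR-196b-5p, which is 1 base away from it, was at 441 and 853 RPM (1.93-fold, 1.60 to 2.33), so these are not independent values. miR-196a-1-3p, which can only come from the Hoxb copy, was at 85 and 148 RPM. miR-10a-5p and miR-10b-5p, from the Hoxb and Hoxd clusters, stood on the other side, each at 199 RPM without Dox and at 139 and 137 RPM with Dox. They are near-identical in sequence, so they are not independent values either, and only 1 of their 2 intervals lay below 1. Over the 5 Hox miRNAs above 10 RPM, 3 were higher and 2 lower, with a median of 0.79 and none at 2-fold.

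Among the 12 lowest ratios, miR-210-3p was followed by miR-183-3p, at 99 RPM without Dox and 33 RPM with Dox (3-fold lower, 1.56 to 6.33). It is the minor arm of a hairpin whose major arm, miR-183-5p, was among the 10 most abundant miRNAs and hardly differed, at 25934 and 25881 RPM. The miR-183 cluster is known from sensory organs and is also high in stem cells. Its other main products were miR-182-5p, at 41677 and 35504 RPM, and miR-96-5p, at 4460 and 4994 RPM. Of 6 members, 1 was higher, 5 were lower and 1 was lower by 2-fold, with a median of -0.30.

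miR-145a-5p, a smooth muscle and fibroblast miRNA, was at 85 and 30 RPM (2.83-fold lower, 1.40 to 6.16), while its cluster neighbour miR-143-3p was at 2191 and 1960 RPM. miR-6539 was at 526 RPM without Dox and 205 RPM with Dox (2.57-fold lower, 1.96 to 3.38), and at days 1, 2 and 4 it was at 469, 451 and 199 RPM without Dox and 278, 417 and 131 RPM with Dox. It was lower with Dox in all 4 pairs. miR-708-3p was at 136 and 60 RPM (2.27-fold lower, 1.36 to 3.88), and the major arm miR-708-5p at 3151 and 2468 RPM. miR-129-5p, which comes from 2 hairpins on chromosomes 6 and 2, was at 150 and 68 RPM (2.21-fold lower, 1.36 to 3.65). The rest of the 12 lay between 2.22-fold lower for miR-30d-3p (102 and 46 RPM) and 1.77-fold lower for miR-92a-1-5p (218 and 123 RPM), and were miR-3068-3p, miR-205-5p, miR-221-3p and miR-25-5p.

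The direction at day 0 was carried into the later pairs by part of these miRNAs. Of the 12 highest, 12 were higher with Dox at day 1, 11 at day 2 and 6 at day 4, and 6 were higher on every later day. Those 6 were miR-770-3p, miR-1968-5p, miR-582-5p, miR-673-5p, miR-196a-5p and miR-196b-5p. Their set's median log2 ratio went from 1.39 at day 0 to 0.62, 0.52 and 0.069. Of the 12 lowest, 8, 11 and 10 were lower at days 1, 2 and 4, and 7 on every later day, with medians of -1.13, -0.45, -0.35 and -0.47. Those 7 were miR-210-3p, miR-183-3p, miR-6539, miR-708-3p, miR-129-5p, miR-205-5p and miR-92a-1-5p. Over all 297 miRNAs above 50 RPM, 57 (19.2%) kept their day 0 direction on every later day, against 50% of the 12 highest and 58.3% of the 12 lowest.

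**Figure D2:**
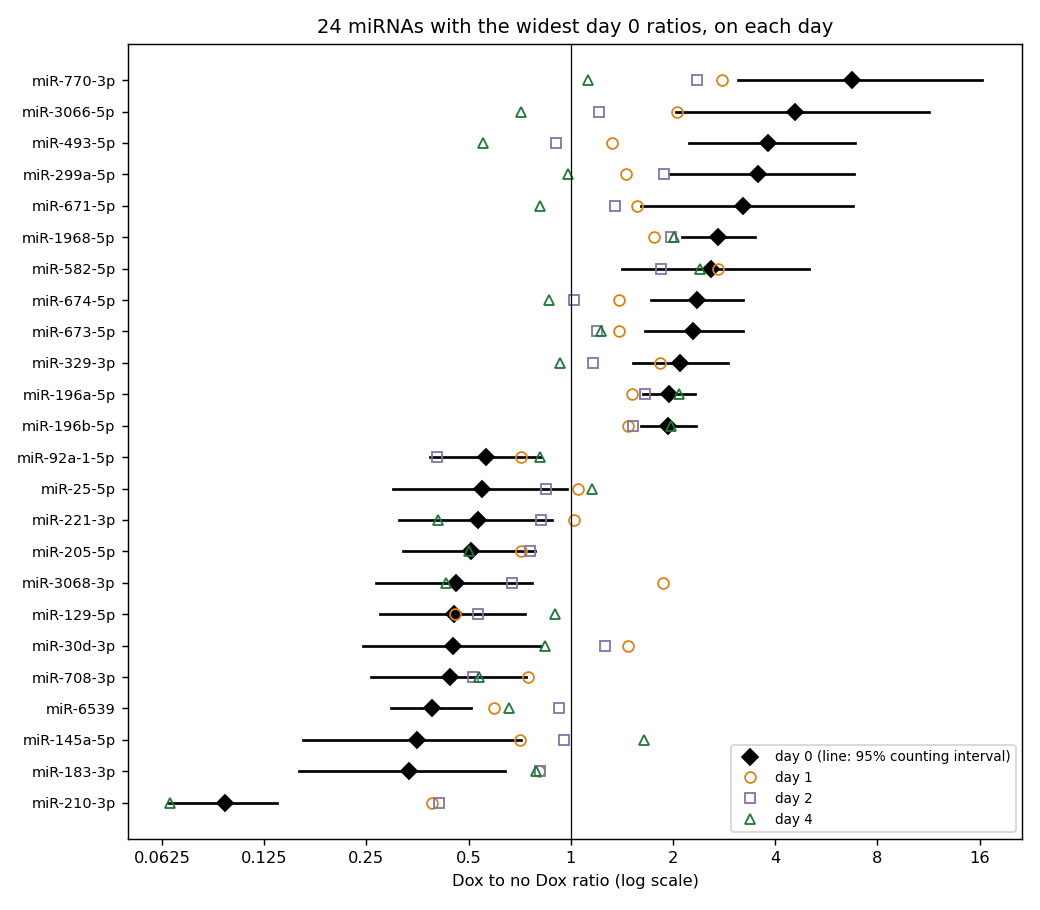
Dox to no Dox ratio (x axis, log scale) of the 12 highest and 12 lowest miRNAs above 50 RPM at day 0, with black diamonds and lines for day 0 and its 95% counting interval, and open symbols for days 1, 2 and 4. Open symbols of miR-1968-5p, miR-582-5p, miR-196a-5p and miR-196b-5p stay right of 1, those of miR-210-3p stay left of it, and those of miR-493-5p and miR-3066-5p lie on both sides.

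Over days 1, 2 and 4 together, limma called 6 of 839 miRNAs (0.715%), 4 higher and 2 lower with Dox, and 71 had an unadjusted p under 0.05. Besides miR-210-3p and miR-582-3p these were miR-542-3p, which fell by 1.25 (SE 0.32, adjusted p = 0.0228, 0.0139 to 0.768 over 10 alternatives), and the near-identical miR-669a-3p, miR-669o-3p and miR-669a-3-3p. The latter rose by 1.59 to 1.63 (adjusted p = 0.0256, 0.0169 to 0.768). Each pointed the same way at day 0: miR-542-3p was at 126 and 82 RPM, miR-669a-3p and miR-669o-3p at 27 and 71, and miR-669a-3-3p at 24 and 68. No call of the 6 but that of miR-210-3p survived without the day 2 pair, and none survived without the day 1 or the day 4 pair.

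The day 0 difference itself was tested against the later one in the same fit, and 0 of 839 miRNAs (0%) passed, with 32 at an unadjusted p under 0.05. limma-voom on the implied reads also called 0, with 22. The lowest adjusted p belonged to miR-935, at 0 RPM without Dox and 27 RPM with Dox at day 0 and at 9 to 36 RPM in the later libraries. Its difference of 4.63 (SE 1.31, limma adjusted p = 0.337) depends on the pseudocount. Against a floor of 3 reads miR-935 was 3.71-fold higher with Dox at day 0, and its counting interval allows a rise of 2.53-fold. miR-493-5p had a difference of 2.10 (SE 0.69) and miR-20a-5p one of 1.10 (SE 0.36), both with a limma adjusted p of 0.696. The day 0 side of this contrast is 1 pair of libraries, fitted exactly, so the spread behind each SE comes from the 3 later pairs and is assumed to hold at day 0. The contrast therefore does not replace a replicate of day 0, and the lack of calls does not show that the days were alike.

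The most abundant miRNAs held a smaller share with Dox. The 10 most abundant made up 57.5% of the values without Dox and 51.8% with Dox. Of these, 7 belong to the miR-290 cluster, and the others are miR-184-3p, miR-182-5p and miR-183-5p. miR-293-3p, the first in rank, was at 116591 RPM without Dox and 109875 RPM with Dox. miR-295-3p hardly differed, at 59406 and 58570 RPM, with an interval of 0.968 to 1.00. miR-292a-5p was at 63604 and 46735 RPM (1.36-fold lower) and miR-291a-3p at 48568 and 37773 RPM (1.29-fold lower).

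All 14 miR-290 cluster miRNAs above 10 RPM were lower with Dox at day 0, by log2 ratios between -0.97 and -0.02, and 11 intervals lay below 1. The median was -0.22, beside 0.025 over all 455, and none reached 2-fold under the scaling as deposited. At days 1, 2 and 4 the medians were -0.10, 0.026 and 0.44, so the order was the opposite at day 4. The cluster is read from 1 primary transcript, so its members are not independent. miR-184-3p, an abundant miRNA outside the cluster, was at 60659 and 63345 RPM.

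Against this, miRNAs with the seed AUUGCAC, a matched sequence and a mean of at least 10 RPM were all higher with Dox. miR-92a-3p, of the miR-17 cluster, was at 16313 RPM without Dox and 20980 RPM with Dox. miR-25-3p, of the Mcm7 cluster, was at 12105 and 14953 RPM. miR-32-5p, from an intron of Tmem245, was at 1462 and 2668 RPM, which is the highest log2 ratio of any miRNA above 1000 RPM. miR-363-3p, on the X chromosome, was at 1418 and 2394 RPM, and miR-92b-3p at 128 and 205 RPM. They come from several transcripts, although miR-92a-3p also has a copy beside miR-363. Their log2 ratios ran from 0.30 to 0.87, with all 5 intervals above 1. miR-92a-3p and miR-92b-3p differ at only 3 positions. Their median was 0.68 at day 0 and -0.18, -0.23 and -0.51 at days 1, 2 and 4, so the median had the opposite sign on the later days. The seed family was picked out after its values were seen.

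Another seed of the miR-17 clusters, AAAGUGC of miR-17-5p, was counted at the same minimum level, as was the seed AAGUGCU below. With Dox 5 of its 6 members were higher, 4 of them with an interval above 1. miR-20a-5p led these in abundance, at 8523 and 12499 RPM, and miR-20b-5p was at 1600 and 2676 RPM. The family's median of 0.25 at day 0 was followed by -0.18, -0.22 and -0.60. The seed AAGUGCU of miR-291a-3p, miR-294-3p and miR-295-3p, which shares 6 bases with it, had a median of -0.19 at day 0, with 1 of 5 higher. miR-19a-3p and miR-19b-3p, which come from the same transcripts but have another seed, were lower, at 3646 and 3187 RPM and at 3289 and 2572 RPM. The list of miR-17 family clusters as a whole had 11 of 23 members higher and a median of -0.0016, which is 0.079 when only means of at least 50 RPM are kept. The members at 2-fold were miR-363-5p, at 27 and 63 RPM, and, lower, miR-18b-3p at 19 and 5 RPM and miR-20a-3p at 17 and 5 RPM.

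Several other abundant miRNAs differed by less than 2-fold but far beyond counting error. miR-7a-5p, a brain and islet miRNA, was at 16938 RPM without Dox and 26526 RPM with Dox, and miR-7b-5p, which differs from it at 2 positions, at 15731 and 24826. At days 1, 2 and 4 miR-7a-5p was instead lower with Dox, at 17450 and 13882, 14934 and 13892, and 5876 and 4566 RPM. miR-21a-5p, high in fibroblasts and in many differentiated cells, was at 8428 and 14675 RPM. Among the miR-181 family, miR-181d-5p was at 5575 and 3684 RPM, miR-181b-5p at 4758 and 3130 and miR-181c-5p at 1336 and 877, each 1.51- to 1.52-fold lower. As miR-181b-5p and miR-181d-5p differ at only 2 positions, their values may not be independent. The family's median was -0.60 over 5 members, with 1 higher and 4 lower.

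The imprinted Dlk1-Dio3 region on chromosome 12 codes for a large group of miRNAs on the maternally expressed Meg3, Rian and Mirg transcripts, and it is known to be silenced in some cultured pluripotent lines. Its miRNAs made up 6.57% (6.49 to 6.64) of the reads without Dox and 8.34% (8.25 to 8.43) with Dox. Of 104 listed, 75 had a mean of at least 10 RPM. Of these 47 were higher and 28 lower with Dox, 8 and 2 by at least 2-fold, with a median log2 ratio of 0.21. Over all 455, 234 were higher and 217 lower, 7.25% and 7.69% by 2-fold, with a median of 0.025, so the 2-fold count on the higher side is close to that of all miRNAs. An interval lay above 1 in 23 and below 1 in 5. Scaled outside the miR-290 cluster, 40 of the 75 were higher and the median was 0.068.

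The most abundant, miR-381-3p, was at 8607 RPM without Dox and 15514 RPM with Dox, and miR-379-5p at 8872 and 13346 RPM. miR-300-3p was at 7822 and 10578 RPM. miR-127-3p, cut from the transcript antisense to Rtl1, was lower, at 8847 and 7634 RPM, and so was its other arm miR-127-5p, at 841 and 487 RPM. Members of this 1 region thus differed in direction beyond counting error.

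Members at 2-fold or more were miR-770-3p and 4 others already among the highest ratios, namely miR-493-5p (44 and 167 RPM, 3.80-fold, 2.23 to 6.87), miR-299a-5p (36 and 128 RPM, 3.56-fold, 1.94 to 6.80), miR-673-5p (136 and 312 RPM, 2.29-fold, 1.65 to 3.22) and miR-329-3p (150 and 314 RPM, 2.09-fold, 1.52 to 2.90). The others that were higher rested on few reads: miR-493-3p at 12 and 25 RPM, miR-412-5p at 7 and 19 RPM, and miR-1193-5p at 2 and 25 RPM with an interval of 1.41 to 445. miR-376a-3p and miR-410-5p were lower, each at 24 and 5 RPM.

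The region was also read by position. Among miRNAs with a matched position, of the 6 in the first 16.6 kb, next to Meg3, 5 were higher and 4 by 2-fold, with a median of 1.10. The 17 between 22.1 and 54.6 kb, along the Rtl1 antisense transcript and Rian, had 9 higher, none at 2-fold and a median of 0.060. The 49 from 145 kb on, in Mirg, had 31 higher, 4 higher and 2 lower by 2-fold, and a median of 0.17. For the first 6 the medians at days 1, 2 and 4 were 0.76, 0.33 and -0.063. They comprise both arms of 3 hairpins, and no test was run on the stretches, whose bounds were drawn with the values known.

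**Figure D3:**
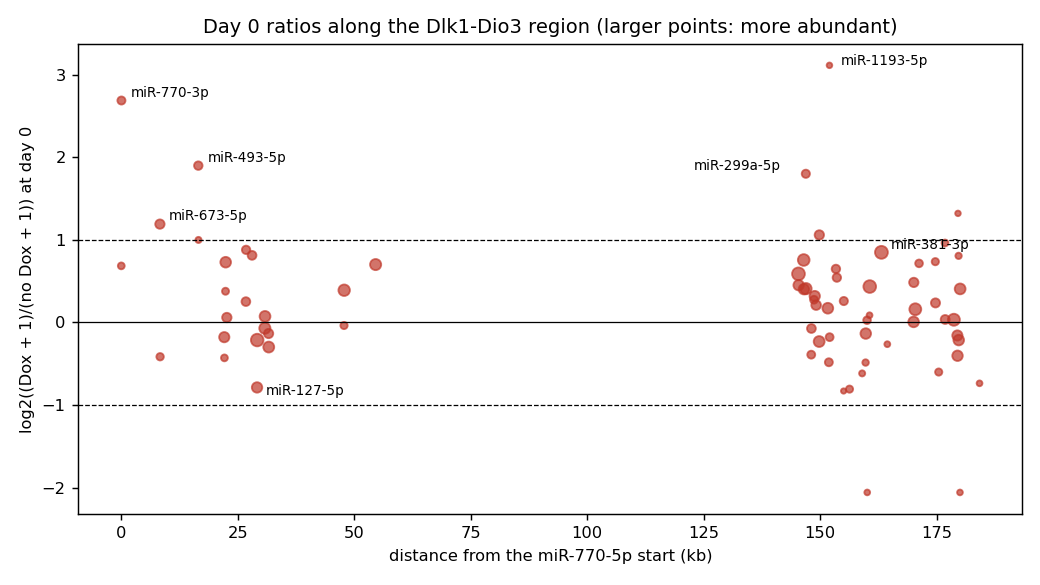
Log2 ratio of Dox to no Dox at day 0 (y axis) for the miRNAs of the Dlk1-Dio3 region against distance from the start of miR-770-5p in kb (x axis), with larger points for more abundant miRNAs and dashed lines at 2-fold. The points of the first 16.6 kb, with miR-770-3p, miR-493-5p and miR-673-5p, sit mostly above 0, while those from 145 kb on lie on both sides.

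The list of the Sfmbt2 cluster was drawn up by family name (rodent miR-297, miR-466, miR-467 and miR-669 families). It is therefore not limited to the cluster, since miR-467h lies on chromosome 9. These miRNAs are near-identical copies, so reads can be shared among rows. They made up 0.575% of the reads without Dox and 0.722% with Dox. Of 55 above 10 RPM, 36 were higher and 18 lower, 6 and 1 by 2-fold, beside 234 of 455 higher and 7.25% and 7.69% at 2-fold over all miRNAs. With means of at least 50 RPM none of 33 reached 2-fold, and with a pseudocount of 5 the count was 4 higher and 0 lower. The median was 0.39 at day 0 and 0.067, -0.24 and 1.08 at days 1, 2 and 4. The most abundant, miR-467a-5p and miR-467b-5p, have identical values of 560 and 787 RPM. After them, miR-669c-5p had a log2 ratio of 0.41 and miR-467h was at 242 and 282 RPM. The 6 at 2-fold were the 3 miR-669 rows named above, miR-466f-5p (22 and 57 RPM), miR-466i-5p (24 and 52 RPM) and miR-669f-3p (7 and 16 RPM), and miR-467e-3p was lower at 32 and 14 RPM.

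Clusters that mark a move away from the naive state were low in both libraries or hardly differed. In the miR-302 cluster, 1 of 5 members was higher, with a median of -0.69. miR-302b-3p was at 126 and 145 RPM and miR-302a-3p at 78 and 41 RPM. miR-302d-3p was at 126 and 104 RPM, and miR-302c-5p at 17 and 0. The let-7 family, which accumulates as cells differentiate, had 7 of 11 higher and a median of 0.34. That median came from its scarce members, since it was -0.0026 over the 7 with means of at least 50 RPM. let-7a-5p was at 548 and 547 RPM and let-7c-5p at 448 and 435, while let-7d-5p was at 7 and 25 RPM.

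In the miR-200 family of epithelial miRNAs all 7 were lower, with a median of -0.19, although miR-200b-3p at 4307 and 4267 RPM and miR-200a-3p at 3146 and 3034 RPM hardly differed. Only miR-200b-5p was lower by 2-fold, at 22 and 8 RPM. The cluster of miR-322 and miR-503, tied to the exit from the cell cycle, had 2 of 8 higher and a median of -0.78. At days 1, 2 and 4 its medians were -0.85, -0.34 and -1.06. The 2 members with means of at least 50 RPM, miR-450b-5p and the miR-542-3p named above, had a median of -0.19 at day 0. At 2-fold, 3 were lower, all at low levels. Of these miR-322-5p was at 46 and 19 RPM, miR-450b-3p at 27 and 11 and miR-322-3p at 15 and 5. miR-450b-5p, at 116 and 137 RPM, stood on the other side.

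Families that act in the cell cycle and in general cell functions lay near the median of all miRNAs. The miR-15/16 family had 5 of 9 higher and a median of 0.11, which is -0.033 when scaled outside the miR-290 cluster, with miR-16-5p at 2036 and 2905 RPM and miR-16-2-3p, lower, at 17 and 8. The miR-23/27/24 clusters had 4 of 8 higher and a median of -0.048, led by miR-27b-3p at 7378 and 9175 RPM. The family of miR-130 and miR-301 had 3 of 7 higher and a median of -0.067, with miR-130a-5p lower at 17 and 5 RPM. In the miR-30 family 4 of 11 were higher, with a median of -0.10. miR-30a-5p was at 14434 and 13423 RPM, and the members at 2-fold lower were miR-30d-3p and miR-30b-3p, at 44 and 8 RPM. The miR-99/100 and miR-125 group had 3 of 7 higher and a median of -0.047, led by miR-99b-5p at 1803 and 1662 RPM. The group of miR-29, miR-148 and miR-152, which includes repressors of DNA methyltransferases, had 3 of 9 higher and a median of -0.0010, with miR-148a-3p at 8809 and 10523 RPM. The p53-linked family of miR-34 and miR-449 had 4 of 5 higher and a median of 0.18, led by miR-34a-5p at 865 and 978 RPM, and miR-34b-3p was at 7 and 25.

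miRNAs reported to be made without the Microprocessor give a comparison for the products of that enzyme. Of 12 listed, 3 were above 10 RPM. miR-320-3p was at 388 RPM without Dox and 331 RPM with Dox, miR-484 at 112 in both and miR-1981-5p at 90 and 85. All 3 intervals included 1, and the median was -0.082 beside 0.025 over all miRNAs. As values are relative to a common total, a shared shift of all the others would appear as an opposite shift of these 3. Whether there was such a shift was not tested, and 3 members are few.

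**Figure D4:**
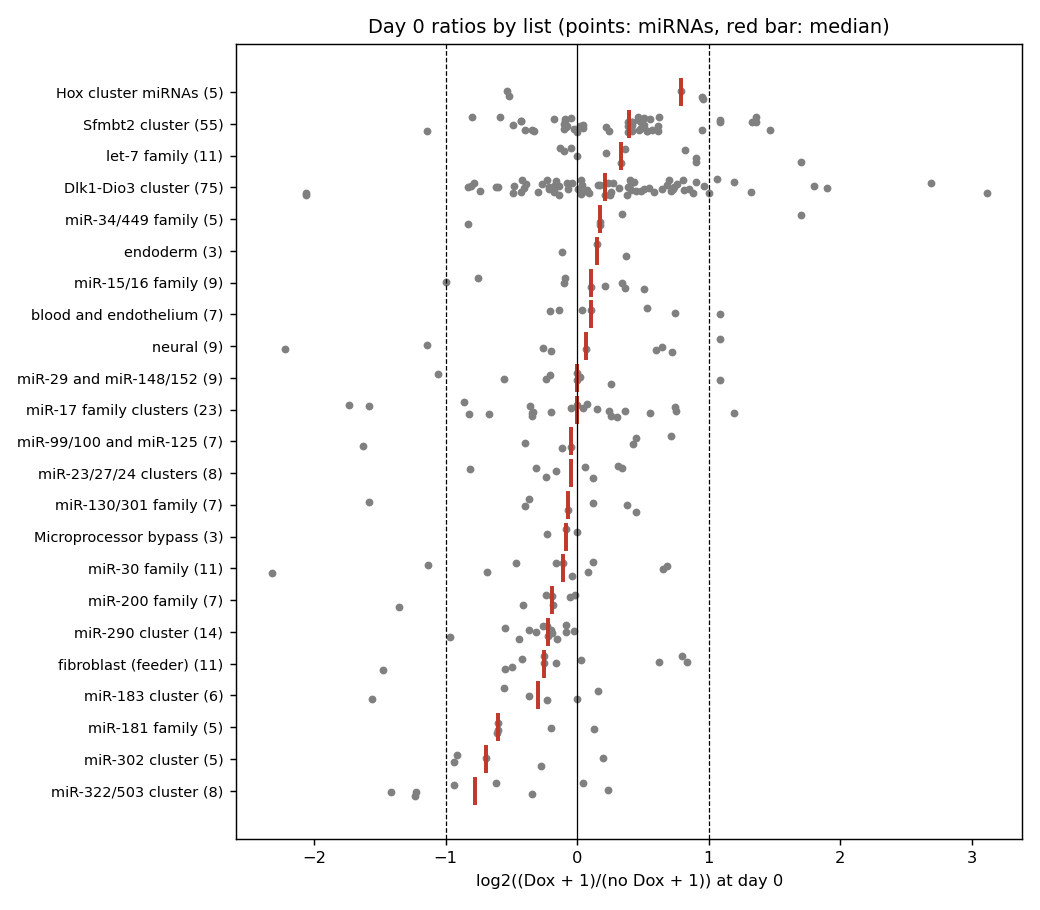
Log2 ratio of Dox to no Dox at day 0 (x axis) for each miRNA with a mean of at least 10 RPM in the lists with at least 3 such members (y axis, number of members in brackets), with the median as a red bar and dashed lines at 2-fold. Medians run from -0.78 for the cluster of miR-322 and miR-503 to 0.79 for the Hox miRNAs, and within most lists points lie on both sides of 0.

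Of the markers of other cell types, 12 of 12 fibroblast, 11 of 14 neural, 9 of 13 blood and endothelial, 5 of 9 endoderm and 3 of 7 muscle miRNAs were above 0 in a day 0 library. The defining miRNAs miR-1a-3p of muscle and miR-451a of red blood cells were at 0 in both. Fibroblast miRNAs, which feeder cells would bring, made up 1.39% without Dox and 1.97% with Dox, or 13904 and 19693 RPM in sum, of which miR-21a-5p alone held 8428 and 14675. Of 11 above 10 RPM, 4 were higher and 7 lower, with a median of -0.25, and the more specific miR-199a-5p was at 264 and 180 RPM. Neural miRNAs made up 2.092% and 3.002%, of which miR-7a-5p was the larger part, whereas miR-9-5p was at 3452 and 2889 RPM and miR-124-3p at 179 and 156. Of 9, 5 were higher, and the median of 0.070 became -0.070 when scaled outside the miR-290 cluster. Members at 2-fold were miR-9-3p (41 and 8 RPM), miR-219a-5p (32 and 14) and, higher, miR-219a-1-3p (7 and 16).

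Blood and endothelial miRNAs made up 0.217% and 0.212%, with 5 of 7 higher and a median of 0.10, or -0.037 under that scaling, and miR-150-3p, at 7 and 16 RPM, was the member at 2-fold. Muscle had miR-499-5p alone above 10 RPM, at 63 and 19 RPM. Endoderm had 2 of 3 higher and a median of 0.15, led by miR-192-5p at 516 and 670 RPM. Fewer cells of a type and less miRNA per cell cannot be told apart in such bulk libraries, and the part of these markers in the differences above was not tested.

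The 2 arms of a hairpin leave the Microprocessor in 1 piece, so their ratios were set side by side. The major arm was taken as the one with the higher mean over all 8 libraries. In 129 hairpins whose other, lesser arm reached a mean of 10 RPM at day 0, the lesser arm had the lower Dox ratio in 78 (60.5%) at day 0. At days 1, 2 and 4 it did so in 62 (48.1%), 65 (50.4%) and 64 (49.6%). The median difference, lesser minus major arm, was -0.24 in log2 at day 0 and 0.015, -0.0018 and 0.0080 later. Where the major arm was at least 5 times the lesser, the day 0 share was 52 of 73 (71.2%) with a median of -0.35, and with the lesser arm at 50 RPM or more it was 35 of 57 (61.4%). In 12 hairpins the lesser arm was the more abundant one at day 0. With arms ranked by the day 0 libraries and both at 10 RPM or more, the lesser was lower in 76 of 127 (59.8%), with a median of -0.22, an alternative chosen after the data were seen. Some hairpins share the values of an arm, such as miR-199a with miR-199b and miR-467a with miR-467b, so the 129 are not all separate measurements. Arms were not tested, and the measure was looked at with the values known.

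In 9 hairpins the arms stood on opposite sides at day 0 with both intervals leaving out 1, and in 8 of these the lesser arm was the lower. miR-27a-3p was at 6942 RPM without Dox and 8785 RPM with Dox, and miR-27a-5p at 727 and 413. In the Mir25 hairpin printed above, miR-25-3p was higher and miR-25-5p lower, at 95 and 52 RPM (1.83-fold lower, 1.03 to 3.34). The lesser arms miR-17-3p (550 and 435 RPM), miR-423-5p (269 and 189), miR-30d-3p, miR-872-3p (61 and 25), miR-30b-3p and miR-125a-3p (36 and 11) did likewise. The exception was miR-329, whose lesser arm miR-329-3p was higher while miR-329-5p was at 1190 and 1014 RPM.

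**Figure D5:**
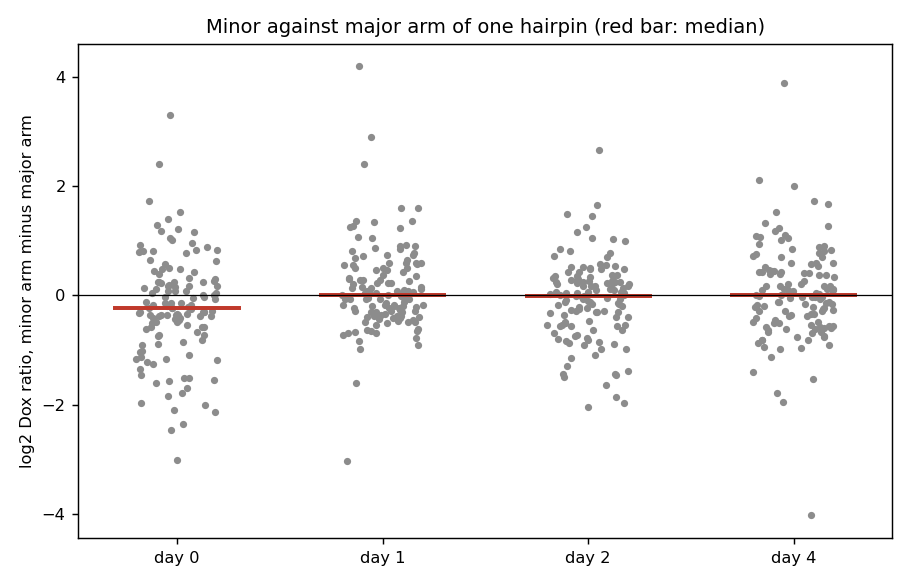
Difference in log2 Dox ratio between the lesser (minor) and the major arm of 129 hairpins (y axis) on each day (x axis), 1 point a hairpin, with the median as a red bar. The day 0 median lies at -0.24 and those of the later days lie near 0.

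A mature sequence was matched for 362 of the 455. By GC content the median log2 ratio was 0.15 under 35%, 0 from 35 to 45%, -0.017 from 45 to 55% and 0.060 at 55% or more. By first base it was -0.085 for A (113 miRNAs), 0.074 for C (64), -0.23 for G (32) and 0.11 for U (153), a wider gap than between the GC classes. UGU, a motif that DGCR8 is known to favour near the apical loop, was searched on the hairpin strand between the mature arms. It was there in 203 of 644 hairpins with both arms (31.5%), and in 78 of the 202 whose major arm passed 10 RPM (38.6%). The median log2 ratio at day 0 was 0.042 with it and 0.11 without it, and this gap was not tested.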

How the data were processed

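Small RNA libraries (NEBNext kit, TRIzol RNA, per the labels' protocols) were made with and without Dox at days 0, 1, 2 and 4, with 1 library per condition. The deposited values are scores: whole numbers with nearly the same sum in every library, read as RPM rounded by the authors. The submitters' processing notes name Bowtie and mm10. The sources used here give no other step. A blank row was left out (1 of the table's rows).

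Whole reads were recovered as the smallest total for which every value is a rounding of whole reads within 0.5 RPM. For the library without Dox at day 0, 207 totals matched, and for that with Dox 2. Ratios, intervals and lists used Python 3.11.15 with scipy 1.17.1. limma 3.58.1 in R 4.3.3 was run on log2(value + 1) for miRNAs at 1 or more in at least 2 libraries, with day as a factor, 2 residual degrees of freedom, a trend, robust prior variance and Benjamini-Hochberg adjustment at 0.05. The prior was infinite for all except 19 of 839 miRNAs, so the spread is largely pooled. Adding 1 to each value shrinks the log2 ratios of low miRNAs, whose ratios also carry the largest counting error. Methods were tested on simulated data.

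Named miRNAs were the 12 highest and 12 lowest ratios with an interval leaving out 1 among means of 50 RPM or more, the 10 most abundant, in each of 25 lists the 4 most abundant and those at 2-fold, both arms of miR-1306, other arms and cluster neighbours, and up to 5 with the lowest adjusted p in each limma contrast. Only part of them is printed. Members, lists and rules were chosen with earlier results of these data known, and seed families, arms on opposite sides, miR-5099, miR-32-5p, miR-7b-5p and single members of lists outside these rules were picked after their values were seen. Alternatives were other pseudocounts, filters, scalings, the prior, voom and leaving out each later pair.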

Additional observations from a re-analysis of the deposited data

How the results depend on the processing

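The count of 2-fold ratios at day 0 followed the minimum level. With no minimum, 268 of 713 miRNAs passed, 147 higher and 121 lower, and with a mean of at least 50 RPM 18 of 297 passed, 10 higher and 8 lower. The 24 extreme ratios are not bounded by these alternatives, since filters leave a ratio as it is and the scalings shift all ratios alike, by at most -0.14. In limma over days 1, 2 and 4, the 6 calls became 0 with no filter on low values (69 with p under 0.05 before adjustment), 0 without the robust prior (49), 10 with a mean of at least 10 RPM and 10 with voom, and ran from 0 to 1 when 1 later pair was left out. These 6 miRNAs had the same direction in 60 of 60 alternatives and lost the threshold in 29. The test of day 0 against the later days called 0 in each alternative run. Depth limits ratios of scarce miRNAs, also above 50 RPM: miR-770-3p and miR-3066-5p each rest on 8 reads without Dox. Without a second day 0 library, spread between cultures is unknown.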
